A study of Mus musculus with 16 samples.

Results

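The genes described here are selectins, selectin ligands and immunoglobulin-domain adhesion molecules, chosen by symbol with earlier results of these data known. All 9 were found among the 47069 genes counted: Sele, Selplg, Cd34, Cd44, Icam1, Vcam1, Pecam1, Alcam and F11r. They were measured by RNA-seq in macrophages grown from bone marrow (BMMs) of C57BL/6 mice aged 8 to 10 weeks. The cells were grown in L929-conditioned medium, primed overnight with IFNγ (10 ng/mL) and then activated for 1 hr with Salmonella LPS (100 ng/mL) and immune complexes of ovalbumin and its rabbit IgG (LPS/ICs). One group received, overnight before activation per the study's methods, DAPT at 25 μM, a gamma-secretase inhibitor (GSI) that blocks the last cleavage of Notch receptors, and the other received the vehicle DMSO at 0.01%. Each group held 2 libraries, each the sum of 4 deposited columns. The labels do not say whether the replicates came from separate cultures or animals, so p-values measure only the spread between these libraries. The series holds no libraries without LPS/ICs or without IFNγ, so the values below compare 2 activated states. GSI also blocks the cleavage of other membrane proteins than Notch, and Notch-independent effects cannot be told apart in this design.

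Leukocytes leave the blood in steps. Selectins such as E-selectin (Sele) hold cells loosely by binding sialylated, fucosylated glycans on carriers such as PSGL-1 (Selplg), CD34 and CD44, and the cells then stop when integrins grip immunoglobulin-domain proteins such as ICAM-1 and VCAM-1. PECAM-1 and JAM-A (F11r) sit at endothelial junctions that the cells pass, and ALCAM binds CD6 on T cells. E-selectin, VCAM-1, PECAM-1 and CD34 are best known from endothelium, and CD34 also from blood progenitors, whereas CD44, PSGL-1 and ICAM-1 are general surface proteins of myeloid cells. CD44 is itself a known substrate of gamma-secretase, at the protein level that RNA-seq does not see.

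The 4 libraries held between 42694655 and 56932059 counts. A count of 0 therefore allowed up to 3 counts, or 0.0527 to 0.0703 CPM depending on the library. Levels are given as CPM, the counts of a gene per 1000000 counts of its library after TMM scaling, and differences as the log2 fold change of GSI against DMSO with its standard error (SE). FDR is the Benjamini-Hochberg adjusted p of edgeR's quasi-likelihood test over all 13211 genes tested, and a gene was called at an FDR under 0.05. The 4 columns behind a library agreed within sampling noise for the 9 genes: of 35 pairs of gene and library with at least 40 counts, 0 had an unadjusted chi-square p under 0.05, and the smallest was 0.0555.

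All 9 genes passed the filter on low counts. With GSI, 6 were lower (Sele, Cd34, F11r, Pecam1, Cd44 and Selplg) and 0 were higher at an FDR under 0.05 in edgeR's test, while Icam1, Vcam1 and Alcam did not pass. The 3 that did not pass included 1, Alcam, with an unadjusted p under 0.05. Among all genes tested, 21.9% were called lower and 19.0% higher. Sele and Cd34 also passed a log2 fold change of -1.5, the size cut-off of the study, which 2.17% of all genes tested passed in the lower direction and 0.742% in the higher. At a fold change of 1.5, a smaller cut-off, 5 of the 9 genes were lower and 0 higher, against 9.05% of all genes tested lower and 5.06% higher. In 8 of the 9 genes both GSI libraries lay below both DMSO libraries, a pattern that 34.8% of all genes tested showed, with 35.8% showing the opposite. The median log2 fold change was -0.68 over the 9 genes and 0.01 over all genes tested. Since the 9 genes were chosen with earlier results of these data known, their counts and median are no independent evidence. In bulk RNA, fewer cells that express a gene and less RNA per cell cannot be told apart.

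**Figure D1:**
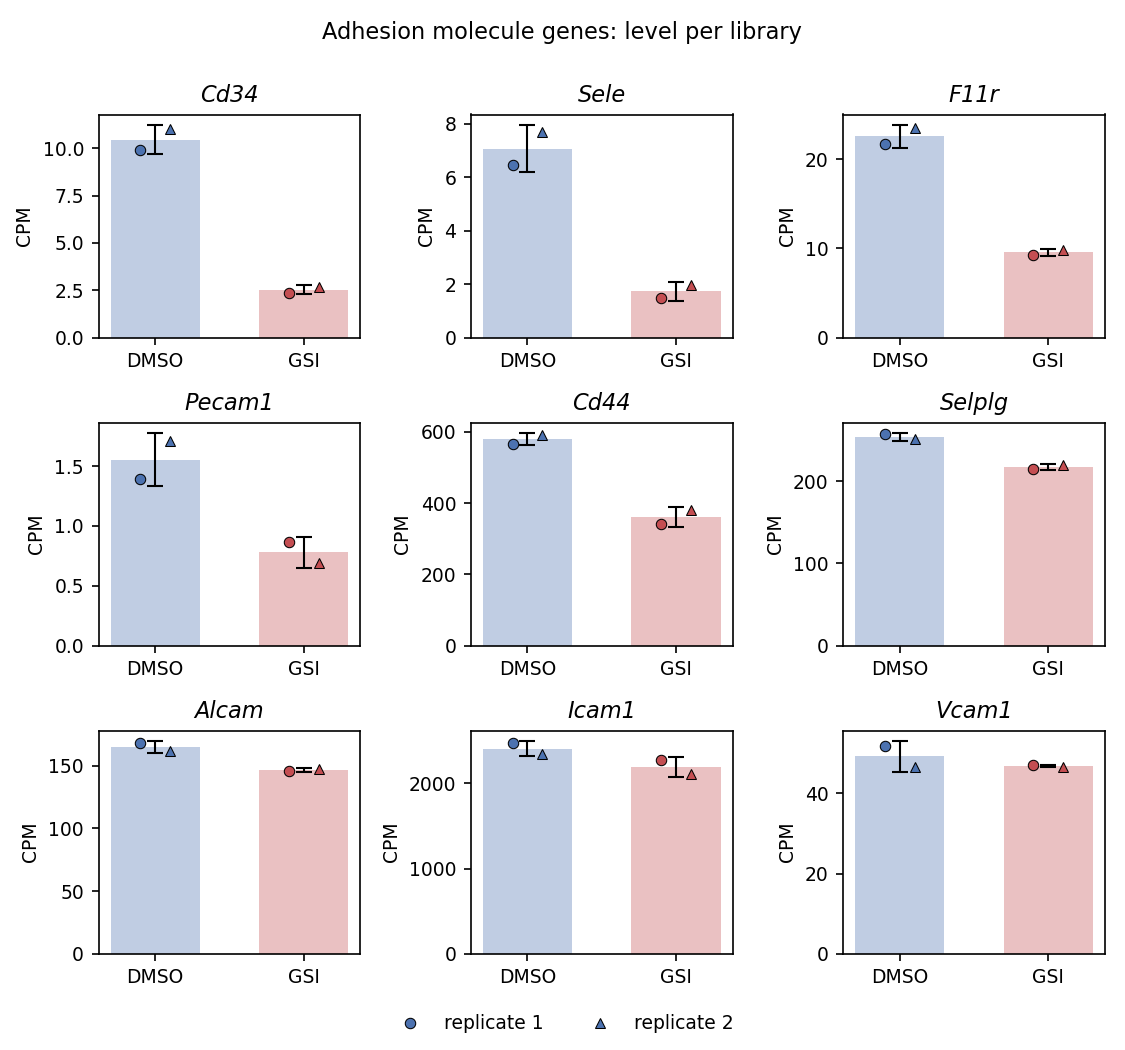
CPM of the 9 genes in each library (circles, replicate 1; triangles, replicate 2), with the mean as a bar and the SD over 2 libraries as the error bar, DMSO in blue and GSI in red, each panel on its own linear axis from 0. Cd34 and Sele drop from about 10.5 and 7.06 CPM to 2.53 and 1.73 CPM, whereas the GSI bars of Alcam, Icam1 and Vcam1 stand at 88.9%, 91.0% and 95.2% of the fitted DMSO level or close to it.

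Sele, the endothelial selectin that cytokines induce, lies at chr1:164048234-164057677 on the plus strand of GRCm38 and has 14 exons. It was counted 277 and 436 times with DMSO but 71 and 98 times with GSI, or 6.44 and 7.68 CPM against 1.47 and 1.98 CPM. The GSI libraries were both far below the DMSO libraries, and the exact 95% Poisson intervals of counting error did not meet, reaching down to 5.70 CPM with DMSO and up to 2.42 CPM with GSI. Sele fell to 24.4% of its DMSO level, a log2 fold change of -2.03 (SE 0.159, FDR = 3.78e-09 from edgeR's quasi-likelihood test). Each of the 4 columns behind DMSO replicate 1 held between 59 and 80 counts and each behind GSI replicate 1 between 12 and 22.

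Selp, which encodes P-selectin of platelets and endothelium, had 0.628 and 1.04 CPM with DMSO and 0.414 and 0.445 CPM with GSI, a log2 fold change of -0.98 (SE 0.322, FDR = 0.0188 from edgeR's test). The groups did not overlap, but the DMSO libraries lay far apart. The call was lost in DESeq2, without GSI replicate 1 and without DMSO replicate 2, where the log2 fold change was -0.55.

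The bases before the start of a gene are shown for Sele, Cd34 and F11r, the genes with the largest decreases, and for Icam1, the most abundant gene, which did not pass the test. Each sequence is the 250 bases before the RefSeq start of the gene, 5′ to 3′ on its own strand, in GRCm38.p6. RefSeq windows were matched for 6 of the 9 genes (Sele, Cd34, Cd44, Icam1, Alcam and F11r). Capitals mark matches, on either strand, to 4 motifs: GGNNNTTCC, a pattern like that of NF-κB sites, TGGGAA, the core bound by RBPJ, the DNA-binding partner of Notch, TGANTCA of AP-1, and TATAAA. Of 32536 distinct windows of this length, 15.7% held the first, 21.6% the second, 6.73% the third and 12.3% the fourth.
Sele, chr1:164047984-164048233: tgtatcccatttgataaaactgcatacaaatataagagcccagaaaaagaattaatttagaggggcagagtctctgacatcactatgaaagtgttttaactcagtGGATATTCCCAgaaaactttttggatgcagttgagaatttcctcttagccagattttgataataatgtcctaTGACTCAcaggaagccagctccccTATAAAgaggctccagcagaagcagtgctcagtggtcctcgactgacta
Cd34, chr1:194938571-194938820: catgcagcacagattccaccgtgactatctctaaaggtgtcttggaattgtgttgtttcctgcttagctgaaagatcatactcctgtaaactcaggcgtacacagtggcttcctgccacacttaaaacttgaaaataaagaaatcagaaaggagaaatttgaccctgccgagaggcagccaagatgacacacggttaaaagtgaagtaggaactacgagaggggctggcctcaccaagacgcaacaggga
F11r, chr1:171437311-171437560: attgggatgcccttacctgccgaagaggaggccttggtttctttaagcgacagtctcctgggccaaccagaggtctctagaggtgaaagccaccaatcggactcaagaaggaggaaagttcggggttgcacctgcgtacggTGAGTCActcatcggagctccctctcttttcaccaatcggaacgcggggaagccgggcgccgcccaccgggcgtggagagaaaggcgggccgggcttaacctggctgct
Icam1, chr9:21015690-21015939: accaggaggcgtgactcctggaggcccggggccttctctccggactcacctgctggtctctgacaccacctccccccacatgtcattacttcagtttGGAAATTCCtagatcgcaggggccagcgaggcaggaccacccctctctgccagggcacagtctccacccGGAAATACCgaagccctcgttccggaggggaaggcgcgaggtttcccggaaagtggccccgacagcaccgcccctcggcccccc

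The Sele window held all 4 motifs, with GGNNNTTCC from -145 to -137 and TGGGAA, read on the other strand, from -140 to -135, so that these matches overlap by 4 bases. TGANTCA lay at -73 to -67 and TATAAA at -49 to -44. The Cd34 window held none of the 4, and that of F11r held only TGANTCA, at -109 to -103. The Icam1 window had GGNNNTTCC at -153 to -145, a match on both strands, and again at -84 to -76, with none of the other motifs. Of the windows not printed, that of Cd44 held TGGGAA at -207 to -202 and, on the other strand, at -179 to -174, and that of Alcam held none. A match of letters is no evidence that a factor bound there, and the genes that fell most did not share 1 motif among these 4.

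Cd34, a sialomucin that carries selectin ligands on endothelium and blood progenitors, lies at chr1:194938819-194961279. Its levels were 9.92 and 10.998 CPM with DMSO and 2.36 and 2.69 CPM with GSI, from 427, 624, 114 and 133 counts. The groups were wide apart, and the libraries within a group lay close together. The log2 fold change of -2.05 (SE 0.128, FDR = 1.66e-10 from edgeR's quasi-likelihood test) was the largest decrease of the 9 genes. The study displayed Cd34 among genes changed in these same libraries, so the size of this change is no independent evidence. Gm16897, annotated on the strand across from Cd34 with 148 shared exon bases, had at most 7 counts in any library. Since the strand setting of the counting is not given in the sources used here, reads of such a partner could be counted with the gene.

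Cd44, the hyaluronan receptor that also carries E-selectin ligands on myeloid cells, lies at chr2:102811141-102901665 on the minus strand and is annotated with 9 transcripts, which the counts sum. It was abundant, with 567 and 591 CPM under DMSO against 342 and 381 CPM under GSI. The groups did not overlap, and Cd44 fell to 62.4% of its DMSO level, a log2 fold change of -0.68 (SE 0.0754, FDR = 4.32e-07 from edgeR's test). The mean level was 579 ± 17.3 CPM with DMSO and 362 ± 28.2 CPM with GSI (SD, n = 2 each).

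Selplg, which encodes PSGL-1, the main ligand of P-selectin on leukocytes, lies at chr5:113818536-113832644. Its levels were 257 and 251 CPM with DMSO and 214 and 220 CPM with GSI. The groups were apart but close, and the log2 fold change was -0.22 (SE 0.0688, FDR = 0.0131 from edgeR's test), the smallest of the 6 called changes. Without DMSO replicate 1 the call was lost (log2 fold change -0.21, FDR = 0.0979).

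Among the immunoglobulin members the decreases were those of F11r and Pecam1. F11r, which encodes JAM-A, a junction protein of endothelium, epithelium and leukocytes that binds the integrin LFA-1, lies at chr1:171437535-171464603. Its 4 levels were 21.7 and 23.4 CPM with DMSO and 9.31 and 9.84 CPM with GSI. The spread within each group was small against the gap between them. The log2 fold change was -1.24 (SE 0.0921, FDR = 1.86e-09 from edgeR's test), and it stayed between -1.29 and -1.18 when 1 library was left out in turn, short of the size cut-off of -1.5 each time. Pecam1, an adhesion and inhibitory receptor of endothelium, platelets and leukocytes at chr11:106654217-106750628, was the rarest of the 9, with counts of 60 and 97 under DMSO and of 42 and 34 under GSI. Its levels were 1.39 and 1.71 CPM against 0.869 and 0.688 CPM, and on counting error alone the lower DMSO library (95% Poisson interval 1.06 to 1.80 CPM) and the higher GSI library (0.626 to 1.17 CPM) met. The fit over all genes gave a log2 fold change of -1.01 (SE 0.239, FDR = 0.00211).

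Icam1, the ligand of the integrins LFA-1 and Mac-1 that LPS and IFNγ induce in macrophages, lies at chr9:21015985-21028817 and was the most abundant of the 9. Its levels were 2470 and 2347 CPM with DMSO and 2273 and 2113 CPM with GSI. The groups did not overlap, but the difference was small, a log2 fold change of -0.14 with a 95% interval of -0.29 to 0.02 (FDR = 0.162 from edgeR's test). Gm47079 is annotated across from it with 511 shared exon bases and was not analysed here. Vcam1, the ligand of the integrin VLA-4 at chr3:116109949-116129688, was 51.9 and 46.5 CPM with DMSO and 47.0 and 46.6 CPM with GSI. It was the only one of the 9 whose groups overlapped, with a log2 fold change of -0.07 and a 95% interval of -0.23 to 0.09 (FDR = 0.481 from edgeR's test). Gm43109, across from Vcam1 with 61 shared exon bases, had at most 2 counts in any library. Alcam, at chr16:52248996-52454074, was 168 and 162 CPM with DMSO and 146 and 148 CPM with GSI. Its log2 fold change of -0.17 had a 95% interval of -0.31 to -0.03, an unadjusted p of 0.0228 and an FDR of 0.0547 in edgeR's test, so it lay at the edge of the threshold, and 5 of 13 alternatives called it. The difference between these 3 genes and those that fell was not tested.

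**Figure D2:**
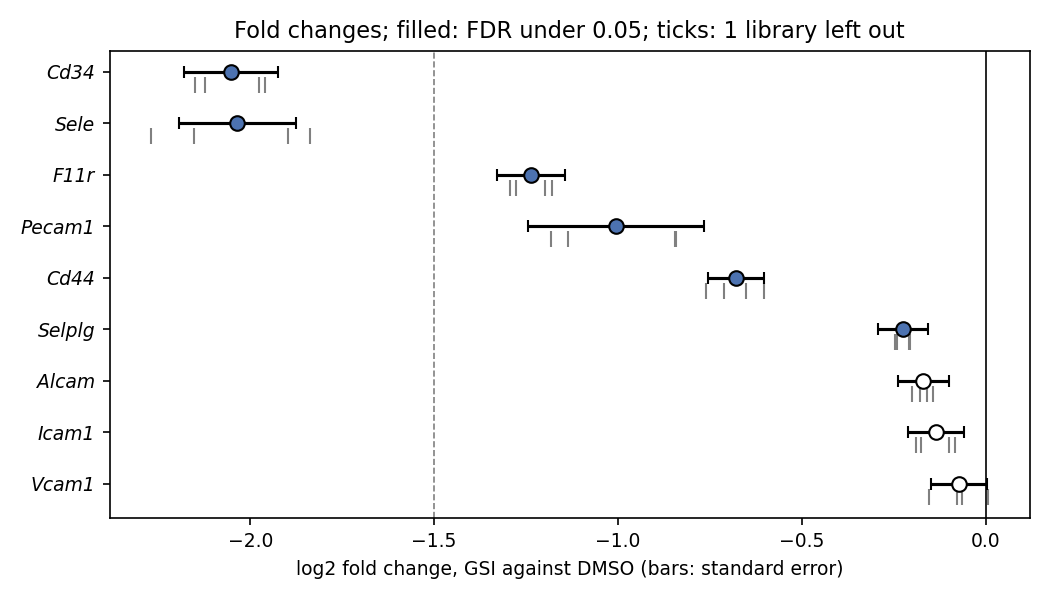
Log2 fold changes of GSI against DMSO (points) with standard errors (bars), filled where the FDR was under 0.05; grey ticks are the values with 1 of the 4 libraries left out, and the dashed line marks -1.5. Cd34 and Sele lie beyond the dashed line in every fit, and only Vcam1 has a tick on the other side of 0, at 0.0065.

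Levels of different genes can be set side by side only per length, here as CPM per kb of the merged exons of a gene. On that scale the order with DMSO was Icam1 (552), Cd44 (85.4), Selplg (59.4), Alcam (23.2), F11r (8.47), Vcam1 (5.55), Sele (2.43), Cd34 (1.44) and Pecam1 (0.249). All neighbours in this order were apart in both libraries. With GSI, Cd44 (53.4 CPM per kb) and Selplg (50.8 CPM per kb) overlapped, and F11r (3.60 CPM per kb) lay below Vcam1 (5.28 CPM per kb). This crossing depended on the length used: per kb of the longest transcript Vcam1 was above F11r in both groups, at 12.0 against 8.96 CPM per kb with DMSO and 11.5 against 3.80 with GSI. On that length Selplg was also above Cd44, and Cd34 above Sele, in both groups. The genes that fell most, Sele and Cd34, were at the low end of the order in both groups, and Icam1 was at the high end. With GSI, Sele and Cd34 were at under 0.7 CPM per kb of merged exons.

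**Figure D3:**
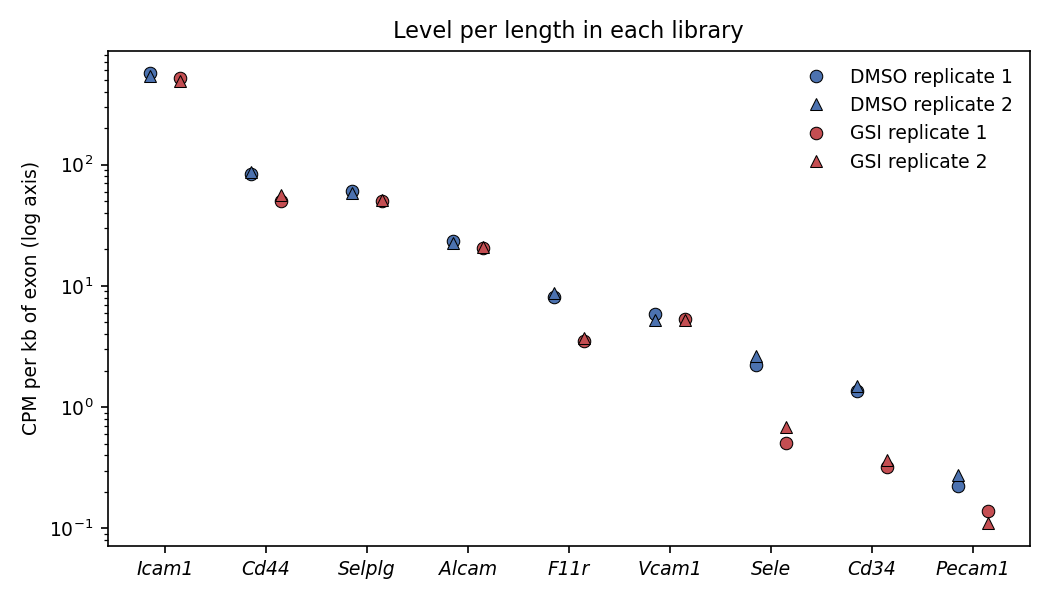
CPM per kb of merged exon on a log axis for each gene and library (blue, DMSO; red, GSI; circles, replicate 1; triangles, replicate 2), ordered by the DMSO mean. Icam1 stands 6.47 times above Cd44 with DMSO and 9.43 times with GSI, and the red symbols of Sele, Cd34 and F11r sit clearly below the blue.

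Summed over the 9 genes, the libraries held 3581 and 3429 per 1000000 counts with DMSO and 3027 and 2916 with GSI. Icam1 made up 69.5% and 68.2% of the 9 genes' counts with DMSO and 74.9% and 72.3% with GSI, and Cd44 15.9% and 17.2% against 11.3% and 13.0%. Sele and Cd34 each made up at most 0.320% in any library. Most counts of the 9 genes were thus those of Icam1 in both groups.

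The genes that build or carry selectin ligands were described from a list of 21, of which 18 were tested. Of these, 11 were lower, 1 was higher and 6 did not pass, with a median log2 fold change of -0.33. Over all genes tested, 21.9% were lower and 19.0% higher, with a median of 0.01. This list and those below were chosen with earlier results of these data known. The 3 largest changes among those called were Chst1, a sulfotransferase, at -2.26 (counts of 20 and 25 under DMSO, 4 and 5 under GSI), Cd24a, a small mucin-like ligand of P-selectin, at -1.06, and Selp at -0.98. The call of Cd24a was lost in DESeq2. Enzymes that decorate PSGL-1 and CD44 were named for that role after their values were seen. Gcnt1, which builds the branched core of the glycan, was 42.8 and 40.8 CPM with DMSO and 23.6 and 24.9 CPM with GSI (log2 fold change -0.78, FDR = 9.65e-08 from edgeR's test). The sialyltransferase gene St3gal4 had a log2 fold change of -0.76 and the fucosyltransferase gene Fut7 one of -0.39, the latter with its call lost without DMSO replicate 2. Glg1, a Golgi glycoprotein also known as an E-selectin ligand, was 199 and 194 CPM against 121 and 119 CPM, a log2 fold change of -0.71. The tyrosine sulfotransferases of PSGL-1 did not pass, with log2 fold changes of 0.02 for Tpst1 and -0.0031 for Tpst2.

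Of 25 other immunoglobulin adhesion molecules, 18 were tested, with 9 lower, 2 higher and 7 not passing, and a median of -0.20. The shares over all genes tested were 21.9% lower and 19.0% higher. Bcam, a laminin-binding protein, rose by a log2 fold change of 1.41 from counts of 28 and 34 under DMSO to 75 and 87 under GSI. Nectin1, a junction protein, was 5.72 and 5.66 CPM with DMSO and 1.86 and 2.59 CPM with GSI, a log2 fold change of -1.35. Pvr, the poliovirus receptor of the same nectin family, was 268 and 237 CPM against 125 and 121 CPM, a log2 fold change of -1.04 (FDR = 1.27e-09 from edgeR's test). Icam2, Icam4 and Jam2, named for their family after their values were seen, did not pass, with log2 fold changes of -0.21, 0.42 and 0.0016.

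All 10 integrin chains that bind the members were tested. Of these, 8 were lower, 0 higher and 2 (Itgb1 and Itgb3) did not pass, with a median of -0.56. The shares over all genes tested were 21.9% lower and 19.0% higher. Itga9, which also binds VCAM-1, had the largest change at -2.04, from 106 and 139 counts to 30 and 28. Itga4, the alpha chain of VLA-4, was 645 and 573 CPM with DMSO and 320 and 320 CPM with GSI, a log2 fold change of -0.93 (SE 0.0757, FDR = 6.51e-09 from edgeR's test). Its partner chain Itgb1 had a log2 fold change of -0.01 (FDR = 0.899). Itgav had a log2 fold change of -0.90. Itgal and Itgb2, which form LFA-1, had log2 fold changes of -0.22 and -0.35, and the call of Itgal was lost without DMSO replicate 2 and without GSI replicate 1. For the pair of VCAM-1 and VLA-4, a decrease was called for the integrin alpha chain gene and none for the ligand gene, and the difference between them was not tested.

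Of 19 genes of hyaluronan turnover, of the ERM proteins that tie CD44 and other members to actin, and of sheddases, 14 were tested. Of these, 5 were lower, 3 higher and 6 did not pass, with a median of -0.15. The shares over all genes tested were 21.9% lower and 19.0% higher. Mmp14, a membrane protease that cuts CD44, had the largest change, from 4.81 and 5.75 CPM with DMSO to 21.7 and 21.3 CPM with GSI, a log2 fold change of 2.02 (SE 0.104, FDR = 1.12e-11 from edgeR's test). Adam8, a membrane metalloprotease of leukocytes, fell from 551 and 609 CPM to 240 and 277 CPM, a log2 fold change of -1.17. Adam10, a sheddase of CD44, had a log2 fold change of -0.66, and Adam17, which sheds several adhesion molecules, did not pass at -0.07. Hmmr, a hyaluronan-binding protein of the mitotic spindle, had a log2 fold change of -1.74.

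**Figure D4:**
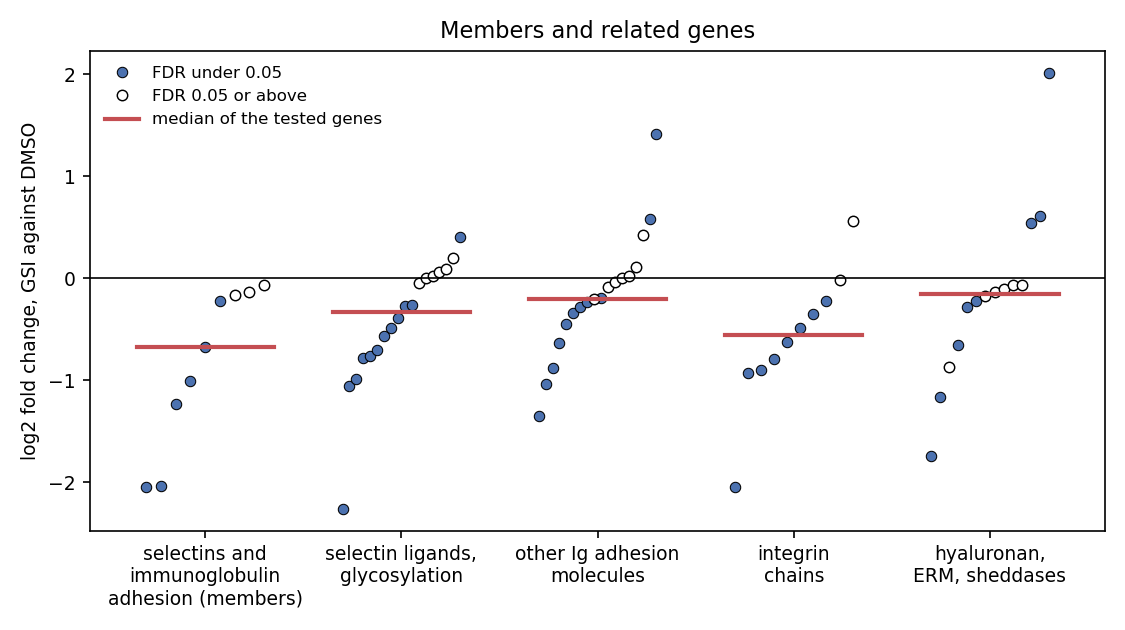
Log2 fold changes of GSI against DMSO for the tested genes of the 9 members and of 4 related lists, one point per gene, filled where the FDR was under 0.05, with the median of each list as a red line. The medians lie between -0.68 for the members and -0.15 for the hyaluronan list, against 0.01 over all genes tested. The highest point is Mmp14 at 2.02.

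The label of the cells was checked with marker lists. All 10 macrophage markers were tested and summed to 12378 and 12586 CPM with DMSO and 9565 and 10488 CPM with GSI. Of these, 8 were lower and 1 higher, where 21.9% of all genes tested were lower and 19.0% higher. Of 12 endothelial markers, which matter for Sele, Vcam1, Pecam1 and Cd34, 5 (Tek, Emcn, Cldn5, Robo4 and Sox17) were at 0 in every library, Tie1 was at no more than 0.0232 CPM and Cdh5 between 0.248 and 0.465 CPM. Of the 4 tested endothelial markers, Kdr rose from 10.5 and 10.3 CPM to 33.4 and 30.8 CPM (log2 fold change 1.63), Vwf was higher (0.71), Flt1 was lower (-0.70) and Cdh5 did not pass (-0.29). The summed endothelial list was 76.6 and 78.0 CPM with DMSO and 106 and 104 CPM with GSI, most of it from Kdr, Vwf and Flt1. Of 10 blood progenitor markers, which matter for Cd34, Elane and Prtn3 were at 0, and the list summed to between 2.72 and 3.23 CPM in the 4 libraries, with 1 of 3 tested higher (Kit, whose call was lost without DMSO replicate 1, without GSI replicate 1 and in DESeq2) and 0 lower. Neutrophil markers summed to at most 1.66 CPM and stromal markers to at most 1.16 CPM, with Cxcl12 the only stromal marker tested (log2 fold change -0.84, its call lost in DESeq2, without DMSO replicate 1, without DMSO replicate 2 and without GSI replicate 1, where it was -0.55). Of the mast cell and basophil markers only Hdc was detected, at between 2.43 and 3.27 CPM. Dendritic cell markers summed to 186 and 179 CPM with DMSO and 113 and 115 CPM with GSI, almost all from Clec9a, which fell by a log2 fold change of -0.69. Their part in the results was not tested.

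Of 6 Notch target genes, 0 passed the filter on low counts. Hes1 had counts of 5 and 2 under DMSO and of 1 and 5 under GSI, so a change of these targets by GSI was not detectable at this depth. In separate assays of LPS/IC-activated cells, the study reported less Hes1 mRNA with GSI by qPCR and no cleaved Notch1 by Western blot.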

How the data were processed

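The authors prepared poly(A) libraries with a stranded mRNA kit, ran them on a NextSeq instrument and removed adapters (Trimmomatic). They mapped reads with STAR (version 2.5.0a in the submitters' processing notes) to mm10, as the study's methods state, and counted them with HTSeq. The processing notes list mm9 as well as mm10. The deposited values are raw counts per Ensembl gene, unnormalized; the strand setting of the counting is not given in the sources used here. All 16 deposited columns were used. The labels do not define the last number in their titles, which was taken as a run, and the 4 columns of each replicate were summed to 1 library.

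Counts were tested with edgeR 4.0.16 in R 4.3.3 (filterByExpr, TMM, glmQLFit and glmQLFTest, group as the only factor, Benjamini-Hochberg adjustment over 13211 genes), after the study's methods. The standard error was the log2 fold change divided by the square root of F. The 95% intervals used the test's degrees of freedom, 19.8, which draw on the spread of other genes as well as that of the gene. Floors and Poisson intervals cover counting error only. In simulated counts, 100% of 100 genes changed 2-fold were recovered for this comparison, over 13027 genes tested. Changed genes were drawn only from the better counted genes, with the spread fitted to these same libraries. Far fewer genes were changed there than were called in the data. Changes under 2-fold, and changes of genes with counts as low as those of Chst1, were not simulated. Positions and exon lengths came from GENCODE M21 (GRCm38) and promoter sequences from RefSeq (GRCm38.p6). The members and gene lists were chosen with earlier results of these data known. Genes named outside the members were the 3 largest called changes of each list and the 3 nearest profiles to the member with the largest decrease, and genes whose exons overlap those of a member on the other strand; others were named for their roles after their values were seen. Alternatives were DESeq2 1.42.0, other normalizations, filters and tests, the replicate block, separate runs and leaving out each library. One gene of the selectin ligand list is counted there but not reported here.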

Additional observations from a re-analysis of the deposited data

How the results depend on the processing

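Over 13 alternatives, 109 of 117 values of the 9 genes kept their direction and their side of an FDR of 0.05, and Sele, Cd34, F11r, Pecam1 and Cd44 did so in each. When 1 library was left out, Selplg ranged from -0.25 to -0.21 on the log2 scale, which treats a lone library as varying like the rest, with its call lost without DMSO replicate 1 (-0.21), and Vcam1 from -0.15 to 0.0065, reversed without DMSO replicate 1. Alcam gained a call with RLE factors (-0.18), with no normalization factors (-0.18), with at least 10 counts in every library (-0.17) and with the replicate block (-0.17, FDR = 0.0243 from edgeR), and Alcam (-0.17) and Icam1 (-0.13) did so with the 16 runs as separate samples, which treats repeat columns of a library as replicates. The replicate block changed no other call among the 9 genes. The 2 replicate numbers give 2 pairs, whose deviations from the group means correlated at 0.175 over 10961 genes. With 2 pairs and no label saying what a number shares, the pairing was not established. Over all genes the block moved those called lower from 2888 to 3314 and higher from 2504 to 3130. The members past both thresholds rose from 2 to 5 with a fold change of 1.5 as the size cut-off, all 5 lower, where 9.05% of all genes tested were lower. Over all genes, 16 separate runs moved those called higher from 2504 to 3896 and those past both thresholds from 385 to 178, and at least 10 counts in every library moved the latter to 154. Per kb of the longest transcript, where merged exons had been used, the mean levels over the 4 libraries became 908 for Icam1, 102 for Selplg, 83.8 for Cd44, 25.9 for Alcam, 11.7 for Vcam1, 6.38 for F11r, 2.12 for Cd34 and 0.339 for Pecam1 CPM per kb, so Selplg passed above Cd44, Vcam1 above F11r and Cd34 above Sele (1.51). Of 56 called genes outside the members, 41 kept their call in every alternative that tested them and 0 reversed. Among the called genes named here, counts were low for Pecam1, Chst1, Selp, Cd24a, Bcam, Kit and Cxcl12, at under 100 in every library. So were those of Icam4 and Jam2, which did not pass.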

Other observations

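The profile nearest to that of Cd34, by Euclidean distance over the 4 libraries in log2 CPM centred per gene, was that of D8Ertd82e (distance 0.0726) among 10957 genes with a mean of at least 1 CPM. D8Ertd82e was 62.1 and 66.1 CPM with DMSO and 15.3 and 16.6 CPM with GSI, a log2 fold change of -2.01. Next came Dmpk (distance 0.156, log2 fold change -1.95), a muscle kinase gene, and then Sele itself (distance 0.184). With 4 libraries in 2 groups such a distance reflects mostly the size of the change.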
